A study of Oryzias melastigma with 6 samples.

Results

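The microRNAs (miRNAs) miR-143-3p and miR-145-5p were followed in small RNA libraries of 3 organs of the marine medaka (Oryzias melastigma), a small saltwater fish. Listed sequences were counted as members when they matched the conserved vertebrate miR-143-3p or miR-145-5p with no more than 2 mismatches, an overlap of 17 nt or more and a 5′ end displaced by up to 3 nt. Of 1571 distinct sequences in the 6 libraries, 11 met the rule, 7 of them miR-143-3p and 4 miR-145-5p, among 1069 sequences assigned to 110 miRNA family arms. The libraries were made from pooled tissue of sexually mature fish, with 1 library each for ovary, testis, female brain, male brain, female liver and male liver. No strain, treatment or age beyond maturity is given, and the number of fish in a pool is not stated in the sources used here. Ovary and testis stood together for the gonads, so that each organ had 2 libraries. Each p-value of the limma fits (linear models) below rests on the spread between a female and a male library of an organ. That spread was pooled over the organs fitted and moderated over families. Low values were raised to a common minimum before these fits, and libraries at that minimum add no spread. The permutation test of the ratio below sets the 2 gonad libraries against the 4 of brain and liver.

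In mammals miR-143 and miR-145 are cut from a shared primary transcript and are abundant in the smooth muscle of vessels and hollow organs, where serum response factor and myocardin drive them. In mouse and human smooth muscle, miR-145-5p represses KLF4 and KLF5, factors of the dividing state, and miR-143-3p represses ELK1, a partner of serum response factor. In zebrafish miR-145 acts in the maturation of gut smooth muscle. In RNA of a whole organ, fewer cells of a type and less of the miRNA per cell cannot be told apart.

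The sequences that carried nearly all of the signal are shown 5′ to 3′ in the DNA letters of the deposited lists, with the seed (bases 2 to 8, the stretch that pairs with targets) in capitals. The first 4 are forms of miR-143-3p and the last 3 forms of miR-145-5p.
miR-143-3p, lead form: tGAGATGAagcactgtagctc
miR-143-3p, 1 base longer at the 3′ end: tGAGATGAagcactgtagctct
miR-143-3p, 1 base shorter at the 3′ end: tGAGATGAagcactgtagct
miR-143-3p, 5′ end 1 base upstream: cTGAGATGaagcactgtagctc
miR-145-5p, lead form: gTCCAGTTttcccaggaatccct
miR-145-5p, 1 base shorter at the 3′ end: gTCCAGTTttcccaggaatccc
miR-145-5p, 2 bases shorter at the 3′ end: gTCCAGTTttcccaggaatcc
The seeds GAGATGA of miR-143-3p and TCCAGTT of miR-145-5p differ, so that the miRNAs read different target sites. All 11 members matched the lead form of their family with 0 mismatches over the shared bases and differed in their ends only. No listed sequence of any other family carried either seed at bases 2 to 8.

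The files implied totals of 18.7 to 25.5 M reads per library (M, mega). They listed sequences of 20 to 23 nt down to a minimum of 10.004 RPM (reads scaled to a library total, per M reads) in ovary, 10.03 RPM in testis, 8.03 RPM in female brain, 6.03 RPM in male brain, 6.03 RPM in female liver and 6.002 RPM in male liver. An unlisted sequence lay below that minimum and was not shown to be absent. Listed miRNA made up 2.36% of all reads in ovary and 1.52% in testis, against 20.98% to 23.1% in brain and 1.82% to 1.97% in liver, so levels are given both as deposited RPM and as a share of a library's miRNA RPM. The organ labels were checked against miRNAs known from each organ. The gonadal miR-202 arms summed to 1310 to 2525 RPM in the gonads and were unlisted in brain and liver, 7 neuronal families summed to 69873 to 75590 RPM in brain against 10.3 to 35.5 RPM in the gonads, and the hepatocyte miR-122-5p stood at 1823 to 2011 RPM in liver only.

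Both miRNAs were most abundant in the gonads and least abundant in liver on the deposited scale. The level of miR-143-3p was 1044 RPM in ovary, 1249 RPM in testis, 300.4 RPM in female brain, 336 RPM in male brain, 44.1 RPM in female liver and 72.4 RPM in male liver. The order for miR-143-3p was gonads, brain, liver in each sex. How many other families had this order was not counted. The fits below on deposited RPM give another measure, by which 6.6% of all families were called higher in gonads than in brain. The share called higher in gonads than in liver was 10.4%, and in brain than in liver 72.5%. The level of miR-145-5p was 524 RPM in ovary, 548 RPM in testis, 76.4 RPM in female brain, 49.9 RPM in male brain and 19.99 RPM in male liver, and it was unlisted in female liver, below 6.03 RPM for any 1 sequence. Ovary and testis differed little beside the distance to the other organs, and miR-145-5p had the same order of organs as miR-143-3p. The organ means of miR-143-3p were 1147 ± 145 RPM in gonads, 318 ± 25.3 RPM in brain and 58.2 ± 20.03 RPM in liver (SD, n = 2 libraries each). Those of miR-145-5p were 536 ± 17.2 RPM in gonads and 63.2 ± 18.7 RPM in brain (SD, n = 2 libraries each).

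As a share of miRNA the pair separated the gonads further, and for miR-143-3p brain stood lowest. The share held by miR-143-3p was 4.43% in ovary (95% Clopper-Pearson interval 4.38 to 4.49), 8.20% in testis (8.12 to 8.29), 0.130% in female brain and 0.160% in male brain, and 0.243% in female liver and 0.367% in male liver. Liver was above brain for miR-143-3p in each sex on this scale, the reverse of the order of the deposited levels. How many other families turned in this way was not counted. By another measure, the fit scaled to miRNA RPM below, 26.3% of all families were called lower in brain than in liver. The share held by miR-145-5p was 2.22% in ovary (2.18 to 2.26), 3.60% in testis (3.54 to 3.66), 0.0331% in female brain, 0.0238% in male brain and 0.101% in male liver. In female liver 1 unlisted sequence of miR-145-5p could hold up to 0.0332%, which is as high as the share in female brain, so neighbours in the order of liver and brain were not told apart for miR-145-5p. Intervals cover counting error only, since PCR copies were not told apart from separate molecules. The shares are of listed miRNA. The listing minimum of 1 sequence was 0.0425% of that total in ovary and 0.0658% in testis. In female brain it was 0.00348%, in male brain 0.00287%, in female liver 0.0332% and in male liver 0.0304%. Totals thus leave out sequences below unlike cuts, and the effect on the shares was not measured.

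Within each library the pair also changed place among the other families. In ovary miR-143-3p ranked 6th of 62 listed families and miR-145-5p 11th, and in testis miR-143-3p ranked 3rd of 51 and miR-145-5p 11th. In female brain miR-143-3p ranked 49th of 102 families and miR-145-5p 73rd, and in male brain they ranked 44th and 73rd of 99. In female liver miR-143-3p ranked 29th of 53, and in male liver miR-143-3p ranked 31st and miR-145-5p 47th of 61. Set against the median listed family of the same library, miR-143-3p was at 12.6 times its level in ovary and 17.6 times in testis, against 1.10 times in female brain, 1.63 times in male brain, 0.853 times in female liver and 1.00 times in male liver. The same quotient for miR-145-5p was 6.31 in ovary and 7.71 in testis, against 0.278 in female brain, 0.243 in male brain and 0.276 in male liver. Outside the gonads, then, miR-143-3p sat near the middle of the listed families and miR-145-5p well below it.

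**Figure D1:**
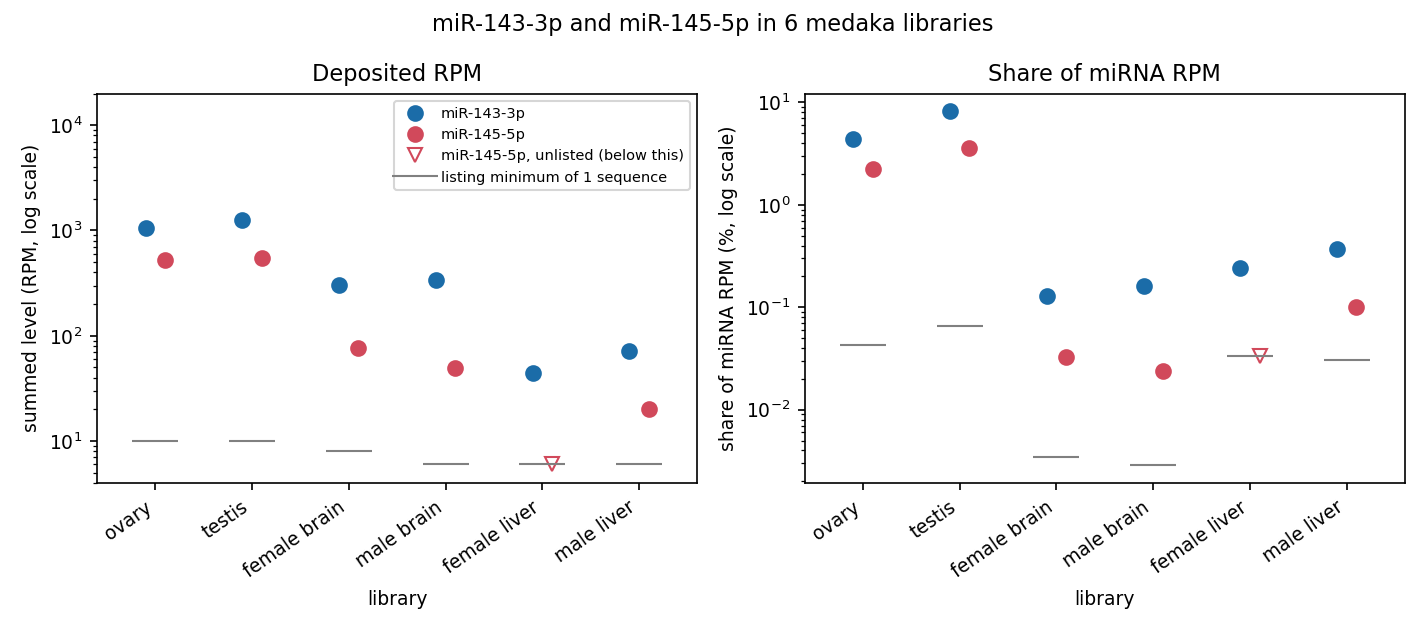
Levels of miR-143-3p and miR-145-5p in the 6 libraries, as deposited RPM (left) and as a share of miRNA RPM in percent (right), both on log axes. Each point is 1 library, a grey line marks the listing minimum of 1 sequence and an open triangle an unlisted value; both miRNAs are highest in ovary and testis on both scales, while brain is above liver on the left and below it for miR-143-3p on the right.

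The comparison of gonads with brain addressed how miRNA profiles differ between organs. Both members were higher in the gonads. The mean of miR-143-3p was 3.60 times that of brain, and its lowest gonad library was 3.11 times its highest brain library. For miR-145-5p these quotients were 8.49 and 6.86. Within females, ovary exceeded brain 3.48 times for miR-143-3p and 6.86 times for miR-145-5p, and within males testis exceeded brain 3.72 times and 10.98 times. In limma fits across all families with Benjamini-Hochberg adjustment, the log2 fold on the log2(RPM + 1) scale was 1.84 ± 0.29 (SE) for miR-143-3p (adjusted p = 0.00497) and 3.10 ± 0.40 for miR-145-5p (adjusted p = 0.00284). Of 106 families tested, 7 (6.6%) were called higher in the gonads and 71 (67.0%) lower at an adjusted p under 0.05. Over all families the log2 fold had a median of -2.53. The fold of miR-143-3p thus lay 4.38 above the median family and that of miR-145-5p 5.63 above it. The 2 families with a larger fold than miR-145-5p were both arms of miR-202. Without the female brain library the fold of miR-143-3p was 1.76 with an adjusted p of 0.0577 (limma), and with unlisted families at 0 in place of the minimum that of miR-145-5p was 3.10 ± 1.59 with an adjusted p of 0.149.

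Scaled to miRNA RPM, the median log2 fold of all families between gonads and brain moved to 0.00. Families raised to the minimum in both organs, such as miR-122-5p, had a fold of 0 and count in this median. On this scale miR-143-3p was higher in the gonads by 5.36 ± 0.40 (limma, adjusted p = 0.000992) and miR-145-5p by 5.38 ± 0.34 (adjusted p = 0.000525). Both brain values of miR-145-5p lay under the scaled minimum of 28.2 to which low values were raised. Its fold is therefore a distance to that minimum, and its brain libraries add no spread to the test. Here 22 of 83 families (26.5%) were called higher in the gonads and 25 (30.1%) lower, and 2 families had a larger fold than miR-143-3p. The mean share of listed miRNA held by miR-143-3p in gonads was 43.5 times that in brain and that of miR-145-5p 102 times, with the unlike listing cuts given above. The size of the contrast thus depended on the scale, while its direction was the same on both.

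Against liver the difference was nearly the same on both scales, and on deposited RPM it was wider than against brain. The mean of miR-143-3p in gonads was 19.7 times that in liver, with the lowest gonad library 14.4 times the highest liver library. Within males, testis exceeded liver 17.3 times for miR-143-3p and 27.4 times for miR-145-5p. Within females, ovary exceeded liver 23.7 times for miR-143-3p, and the lead form of miR-145-5p in ovary was 65.1 times the listing minimum of female liver, so that this form was at least 65.1-fold higher in ovary. The log2 folds were 4.31 ± 0.29 for miR-143-3p (limma, adjusted p = 0.00146) and 5.14 ± 0.40 for miR-145-5p (adjusted p = 0.00201), with female liver set at the common minimum of 10.03 RPM. Of 106 families, 11 (10.4%) were called higher in the gonads and 8 (7.55%) lower, and the median log2 fold was 0.00. Families raised to the minimum in every gonad and liver library, such as miR-124-3p and miR-9-3p, had a fold of 0. They count in these shares and in the median. Scaled to miRNA RPM the fold was 4.33 ± 0.40 for miR-143-3p (limma, adjusted p = 0.00307) and 5.07 ± 0.34 for miR-145-5p (adjusted p = 0.0015). On that scale 15 of 83 families (18.1%) were higher and 10 (12.0%) lower. On either scale 1 family, miR-202-5p, had a larger fold than miR-145-5p. With unlisted families at 0 the fold of miR-145-5p was 6.87 with an adjusted p of 0.0678 (limma). The gonad libraries serve in both of these comparisons, which are therefore not independent.

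Between brain and liver the direction of miR-143-3p turned with the scale, while miR-145-5p could be compared on deposited RPM only. On deposited RPM miR-143-3p was higher in brain by a log2 fold of 2.47 ± 0.31 (limma on 4 libraries, adjusted p = 0.00755) and miR-145-5p by 2.04 ± 0.46 (adjusted p = 0.0299). The unlisted miR-145-5p of female liver was set at the common minimum of 10.03 RPM, so its fold is in part a distance to that minimum. With unlisted families at 0 the fold of miR-145-5p was 3.78 ± 1.84 (limma, adjusted p = 0.15). In this fit 74 of 102 families (72.5%) were called higher in brain and 5 (4.9%) lower. The log2 fold of the median family was 2.55, so both members lay below it, miR-143-3p by 0.08 and miR-145-5p by 0.51. Without female brain the fold of miR-143-3p was 2.55 (limma, adjusted p = 0.119) and that of miR-145-5p 1.74 (adjusted p = 0.227), and without male brain they were 2.39 (adjusted p = 0.13) and 2.35 (adjusted p = 0.166). Without female liver the fold of miR-145-5p was 1.58 (limma, adjusted p = 0.0717), so these calls were lost in fits with fewer libraries while the direction was the same. Scaled to miRNA RPM, with 30 of 76 families (39.5%) higher in brain, 20 (26.3%) lower and a median of 0.18, miR-143-3p was lower in brain, at -1.04 ± 0.28 (adjusted p = 0.0469). The scaled fold of miR-145-5p was -0.30 ± 0.26 (adjusted p = 0.354), but both brain values and the unlisted female liver were raised to the scaled minimum of 28.2, so this value only measures male liver against that minimum and gives no direction. The listed miRNA share of all reads was 20.98% to 23.1% in brain against 1.82% to 1.97% in liver. Scaling to miRNA RPM divides each library by a factor in proportion to that share. Which scale follows the amount per cell was not tested.

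The balance within the pair also differed between libraries. The ratio of miR-143-3p to miR-145-5p was 1.99 in ovary (95% counting interval 1.95 to 2.04), 2.28 in testis (2.23 to 2.33), 3.93 in female brain (3.73 to 4.15), 6.73 in male brain (6.30 to 7.199) and 3.62 in male liver (3.23 to 4.07). In female liver the lead form of miR-143-3p was 5.96 times the listing minimum and miR-145-5p was unlisted, so the ratio of lead forms there was above that value. Both gonad ratios lay below those of brain and male liver, and the highest summed ratio was in male brain. Female liver has no summed ratio, since several unlisted forms of miR-145-5p could add up there. Put as a share, miR-145-5p held 33.4% of the pair in ovary and 30.5% in testis, against 20.3% in female brain, 12.9% in male brain and 21.6% in male liver. The ratio of the lead forms alone gave the same order of gonads against the rest, with 1.93 in ovary and 2.40 in testis against 4.89 in female brain, 7.90 in male brain and 3.68 in male liver. The log2 ratio in the gonads minus that in the other libraries was -1.27 (two-sided exact permutation test over 2 and 4 libraries, p = 0.133, the smallest p that this design allows). Here miR-145-5p in female liver was set at the listing minimum of 1 sequence. Without female liver the difference was -1.10. With so few libraries the test could not decide whether the organs differ, and the brain libraries were themselves apart, at 3.93 and 6.73. A ratio within a library does not depend on the scale, but forms longer than 23 nt and unlisted forms are missing from both sums.

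**Figure D2:**
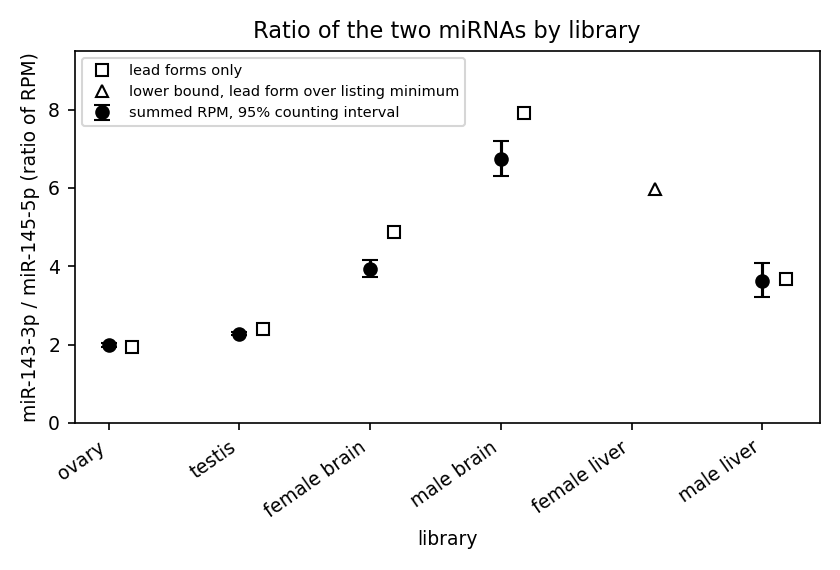
Ratio of miR-143-3p to miR-145-5p in each library, as summed RPM with 95% counting intervals (filled circles), as lead forms only (open squares) and, for female liver, as the lower bound from the listing minimum (open triangle). Ovary and testis lie at 1.99 and 2.28, below brain at 3.93 and 6.73 and male liver at 3.62.

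The same exact form led miR-143-3p in all 6 libraries. The 21 nt lead form stood at 757 RPM in ovary, 824 RPM in testis, 197 RPM in female brain, 240.0 RPM in male brain, 36.0 RPM in female liver and 51.0 RPM in male liver. It held 72.5% of the family in ovary, 65.9% in testis, 65.6% in female brain and 71.4% in male brain, and 81.6% in female liver and 70.5% in male liver. These shares overlapped between the organs, and the highest one came from the library with only 2 listed forms. The 22 nt form with a 3′ T followed with 139 RPM in ovary, 224 RPM in testis, 61.1 RPM in female brain, 55.8 RPM in male brain, 8.10 RPM in female liver and 14.6 RPM in male liver. The 20 nt form was listed in 5 libraries, all but female liver, at 6.81 to 88.7 RPM. The ratio of 22 to 21 nt was 0.184 in ovary, 0.272 in testis, 0.310 in female brain and 0.233 in male brain, and 0.225 in female liver and 0.286 in male liver. Ovary had the lowest value, while testis lay within the range of brain and liver.

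Some copies of miR-143-3p began 1 base upstream, which moves the seed to TGAGATG. This 22 nt form stood at 46.0 RPM in ovary, 62.0 RPM in testis, 14.0 RPM in female brain and 12.4 RPM in male brain, and was unlisted in liver. With a 20 nt form of the same start, at 15.2 RPM in ovary and 19.4 RPM in testis, such copies made up 5.86% of miR-143-3p in ovary and 6.52% in testis, against 4.67% in female brain and 3.69% in male brain. The 20 nt form could not be listed in brain at its share in the gonads, and the 22 nt form alone held 4.404% in ovary and 4.96% in testis against the same brain values, so that the organs overlapped. Starts 1 base downstream, with the seed AGATGAA, were listed in the gonads only, at 16.9 RPM in ovary and 21.1 RPM in testis. The 23 nt form was listed in testis only, at 10.3 RPM. The downstream starts were 1.62% of the family in ovary and 1.69% in testis, and the 23 nt form 0.821% in testis. Such shares could not be listed in the other organs, where the minimum was 1.79% to 2.67% of miR-143-3p in brain and 8.29% to 13.7% in liver.

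The 5′ end of miR-145-5p was the same in all its listed forms, and the forms differed in their 3′ end. The 23 nt lead form stood at 393 RPM in ovary, 343 RPM in testis, 40.3 RPM in female brain, 30.4 RPM in male brain and 13.9 RPM in male liver. It made up 74.97% of miR-145-5p in ovary, 62.6% in testis, 52.8% in female brain, 60.8% in male brain and 69.4% in male liver. The 22 nt form stood at 81.4 RPM in ovary, 132 RPM in testis, 23.8 RPM in female brain, 11.3 RPM in male brain and 6.11 RPM in male liver. Testis thus held less of the 23 nt form and more of the 22 nt form than ovary. The ratio of 23 to 22 nt was 4.83 in ovary (4.59 to 5.08), 2.61 in testis (2.50 to 2.71), 1.69 in female brain (1.52 to 1.88), 2.70 in male brain (2.31 to 3.15) and 2.27 in male liver (1.82 to 2.86). Ovary had the highest ratio and female brain the lowest, and the libraries did not group by organ. A form of miR-145-5p with another start would have to exceed 1.91% of the family in ovary and 1.83% in testis to be listed, but 10.52% to 12.1% in brain and 30.0% in male liver. Since the lead form has the longest length listed, any longer form of miR-145-5p was not analysed here.

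Form by form, the quotient of gonad to brain means was largest for the longest miR-145-5p. The mean of the 23 nt form in gonads was 10.4 times that in brain, that of the 22 nt form 6.07 times and that of the 21 nt form 4.36 times (n = 2 libraries each). The lead of the 23 nt over the 22 nt form came from the female libraries. The ratio of 23 to 22 nt was 4.83 in ovary against 1.69 in female brain, but 2.61 in testis against 2.70 in male brain. For miR-143-3p the quotient was 3.62 for the lead form, 3.11 for the 22 nt form, 2.82 for the 20 nt form and 4.09 for the upstream start. Among the forms listed in gonads and brain alike, none was lower in the gonads, and the quotient of means was larger for each form of miR-145-5p than for each form of miR-143-3p. Single libraries overlapped in this respect: the lowest gonad library was 2.85 times the highest brain library for the 21 nt miR-145-5p, against 3.16 times for the lead form of miR-143-3p.

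**Figure D3:**
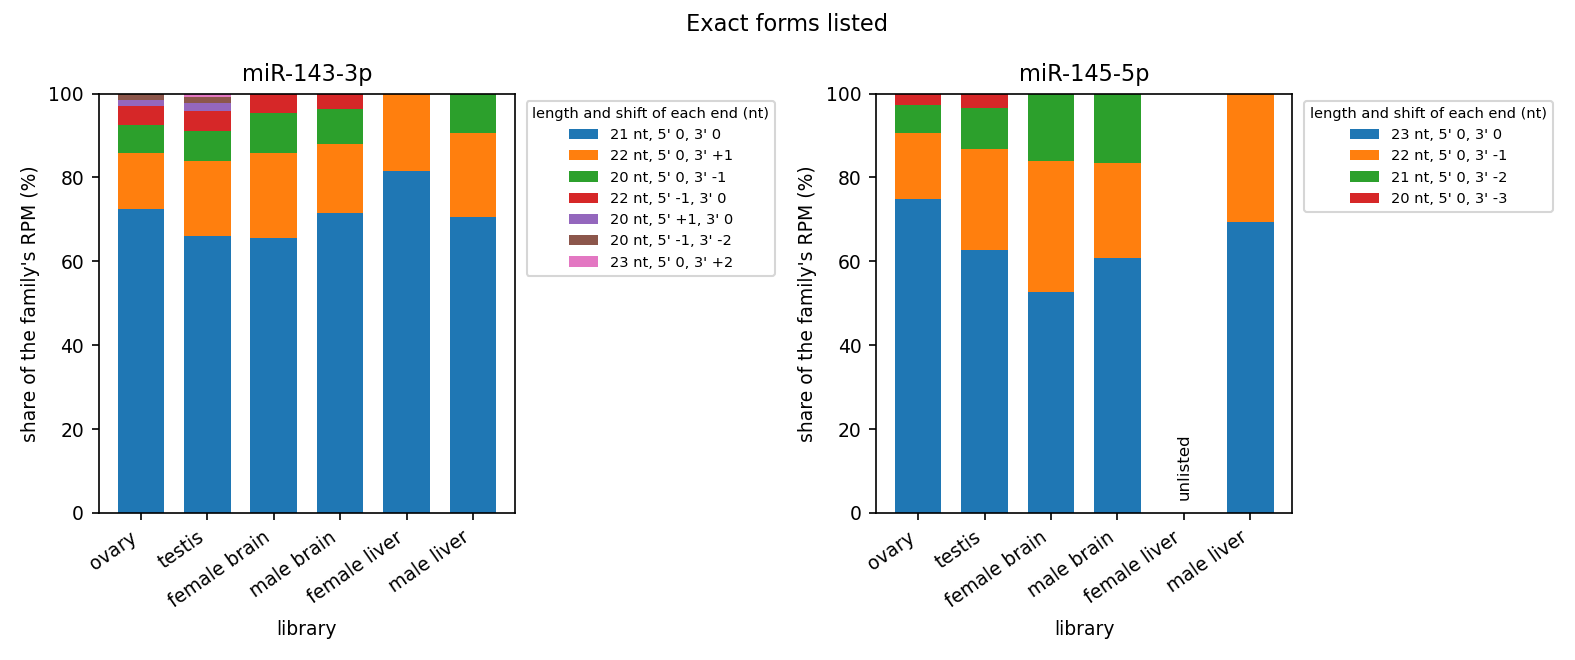
Share of each exact form in the RPM of miR-143-3p (left) and miR-145-5p (right), in percent, as stacked bars for the 6 libraries; colours give the length in nt and the shift of the 5′ and 3′ end from the lead form. The 21 nt form leads miR-143-3p with 65.6% to 81.6%, and the 23 nt form leads miR-145-5p with 52.8% to 74.97%.

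The opposite arms, miR-143-5p and miR-145-3p, are usually degraded after the duplex is opened. No listed sequence was assigned to either in any of the 6 libraries. Assignment used hand-written references and took in 1069 of 1571 listed sequences, so an arm unlike its reference would be missed. The lead form of miR-143-3p stood at 75.7 times the listing minimum in ovary and 82.2 times in testis, against 24.5 times in female brain, 39.8 times in male brain, 5.96 times in female liver and 8.50 times in male liver. The lead form of miR-145-5p stood at 39.3 times the minimum in ovary and 34.3 times in testis, against 5.02 times in female brain, 5.04 times in male brain and 2.31 times in male liver. An opposite arm could therefore reach only a small part of its partner in the gonads, but the lists say little about it in liver.

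Female and male libraries of an organ were compared by their ratio. For miR-143-3p the ratio of female to male RPM was 0.836 in gonads (95% counting interval 0.822 to 0.850), 0.894 in brain (0.864 to 0.924) and 0.609 in liver (0.558 to 0.664), so the female library was lower in all 3 organs. For miR-145-5p it was 0.956 in gonads (0.933 to 0.979) and 1.53 in brain (1.41 to 1.65), and in liver the male lead form was 2.30 times the listing minimum of the female library. Over all families that could be compared the median ratio was 1.57 in gonads (42 families), 1.19 in brain (77 families) and 0.689 in liver (36 families). Both members thus lay below the median family in the comparison of ovary with testis, while in brain miR-143-3p was below the median and miR-145-5p above it. Scaled to miRNA RPM the ratios of miR-143-3p were 0.541 in gonads, 0.812 in brain and 0.662 in liver, and those of miR-145-5p 0.618 in gonads and 1.39 in brain. With median-of-ratios scaling the liver ratio of miR-143-3p was 1.12, on the other side of 1, and with the top sequence alone the gonad ratio of miR-145-5p was 1.14. With 1 pooled library per sex and organ these ratios compare libraries, and a difference between the sexes was not tested.

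Lists of miRNAs of other cells that share the vessel wall or the organ were set beside the pair. Of 4 endothelial families, 0 were called higher and 4 lower in gonads than in brain on deposited RPM, where 67.0% of all families were lower. Their median log2 fold was -3.97, beside -2.53 over all families. When scaled, 1 was higher and 2 lower, beside 26.5% and 30.1% of all families. The endothelial miR-126-3p, which sustains VEGF signalling in vessels, stood at 93.3 RPM in ovary and 71.1 RPM in testis, against 549 RPM in female brain and 332 RPM in male brain and 123 RPM in female liver and 102 RPM in male liver. Its log2 fold between gonads and brain was -2.38 ± 0.32 (limma, adjusted p = 0.00303) on deposited RPM and turned to 1.14 ± 0.27 (adjusted p = 0.0292) when scaled to miRNA RPM, beside 5.36 for miR-143-3p on the same scale. The other called members were lower when scaled, miR-221-3p at -3.49 ± 0.83 (limma, adjusted p = 0.0292) and miR-222-3p at -1.82 ± 0.19 (adjusted p = 0.00313). The latter was unlisted in ovary and testis, and both were raised to the scaled minimum, so its fold is a distance to that minimum. Against liver 0 of 4 endothelial families were called either way on both scales. Over all families 10.4% were called higher and 7.55% lower on deposited RPM, and 18.1% and 12.0% when scaled. The endothelial list summed to 0.602% to 0.652% of miRNA in the gonads, 1.65% to 2.25% in brain and 0.840% to 1.18% in liver. In brain miR-221-3p was the main part of this sum, at 1.72% in female and 1.26% in male brain. The shares of miR-221-3p and miR-222-3p were lower in gonads than in brain, those of miR-126-3p and miR-126-5p higher. For miR-126-3p they were 0.396% in ovary and 0.467% in testis, against 0.238% in female brain and 0.158% in male brain. The smooth muscle pair summed to 6.66% to 11.8% in the gonads, 0.163% to 0.184% in brain and 0.243% to 0.468% in liver.

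Of 4 families of fibroblasts and mesenchyme, 1 was called higher and 1 lower in gonads than in brain (median log2 fold 0.14), beside 6.6% of all families higher and 67.0% lower. After scaling, 3 were higher and 0 lower (median 1.47), beside 26.5% and 30.1% of all families. The largest scaled fold of the list was that of miR-199-3p, at 3.84 ± 0.37 (limma, adjusted p = 0.00227), with male brain raised to the scaled minimum. On deposited RPM miR-199-3p was not called, at 0.39 ± 0.44 (limma, adjusted p = 0.462). The higher one on both scales was miR-214-3p, made with miR-199 from a mesenchymal transcript, at 51.6 RPM in ovary and 34.2 RPM in testis, against 7.41 RPM in male brain and no listing in female brain or either liver. Its log2 fold against brain was 1.96 ± 0.23 (limma, adjusted p = 0.00214). Both brain values lay under the common minimum of 10.03 RPM and were raised to it, so this fold is a distance to that minimum. The broadly expressed miR-21-5p, high in activated fibroblasts, was lower in gonads than in brain on deposited RPM, at -2.31 ± 0.52 (limma, adjusted p = 0.0158), and higher when scaled, at 1.22 ± 0.34 (adjusted p = 0.041). Against liver 10.4% of all families were called higher and 7.55% lower on deposited RPM, and 18.1% and 12.0% when scaled. Of the 4 fibroblast and mesenchyme families, 1 was called higher (miR-214-3p) and 1 lower (miR-199-5p) on both scales. The sum of this list was 6.71% to 9.30% of miRNA in the gonads, 2.63% to 3.12% in brain and 3.87% to 6.43% in liver, with miR-21-5p the main part of it in each library. As deposited RPM the list summed to 1022 to 2190 in the gonads, against 6082 to 6548 in brain and 702 to 1269 in liver, so between gonads and brain it was higher as a share, like the pair, and lower as RPM, unlike the pair.

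Markers of striated muscle and of red blood cells were checked in the same way. Of 3 tested families of striated muscle, 0 were called higher and 3 lower in gonads than in brain on deposited RPM (median log2 fold -1.44), beside 67.0% of all families lower. The 1 family testable when scaled, miR-1-3p, was higher, as were 26.5% of all families. This regulator of cardiac and skeletal muscle stood at 101 RPM in ovary and 79.1 RPM in testis, against 319 RPM in female brain and 186 RPM in male brain, and was unlisted in both livers. Its log2 fold between gonads and brain was -1.44 ± 0.31 (limma, adjusted p = 0.0151) on deposited RPM and 2.07 ± 0.26 (adjusted p = 0.00525) when scaled. Between gonads and liver it was 3.03 ± 0.31 (limma, adjusted p = 0.00479), a distance to the minimum, to which both livers were raised. Its muscle partner miR-133-3p was listed in female brain only, at 8.56 RPM. The red blood cell families miR-144-3p and miR-451-5p summed to 13.9 to 145 RPM in gonads, against 964 to 1767 RPM in brain and 309 to 319 RPM in liver, and 2 of 2 were called lower in gonads than in brain on deposited RPM (67.0% of all families) and 0 of 2 when scaled (30.1% of all families). Against liver 0 of 2 were called on deposited RPM (7.55% of all families lower) and 1 lower when scaled (12.0% of all families). The part of other cells in the levels of miR-143-3p and miR-145-5p was not tested.

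**Figure D4:**
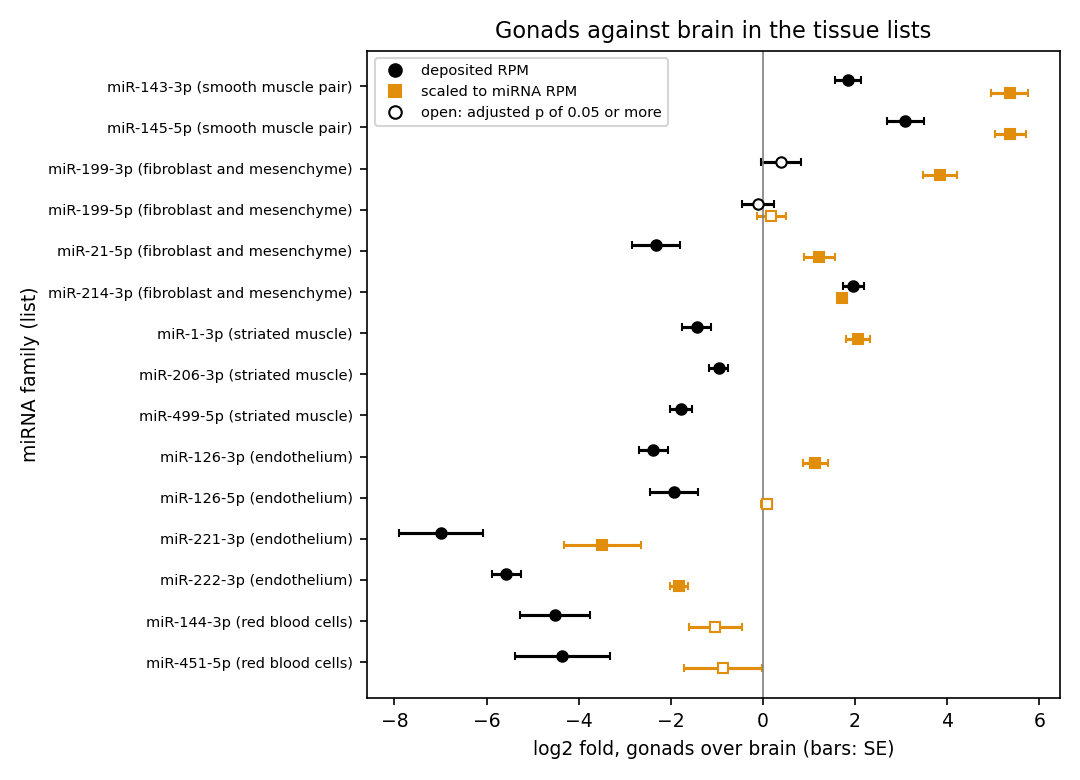
Log2 fold of gonads over brain with its SE for the smooth muscle pair and the listed families of fibroblasts and mesenchyme, striated muscle, endothelium and red blood cells, on deposited RPM (black circles) and scaled to miRNA RPM (orange squares); open symbols did not reach an adjusted p under 0.05, and families with no orange symbol were not testable on that scale. miR-143-3p and miR-145-5p lie right of 0 on both scales, at 1.84 and 3.10 deposited and 5.36 and 5.38 scaled.

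The families with the pattern most like that of the pair were ranked by Pearson's r of log2 values over the 6 libraries, as a description over points that share depth and miRNA content. Among 86 families with at least 50 RPM in some library, miR-145-5p came first for miR-143-3p and miR-143-3p first for miR-145-5p, with r = 0.975. Next for miR-143-3p were miR-196-5p, which lies in the Hox clusters, at r = 0.8125, and miR-202-5p, a gonadal miRNA of fish, at 0.809. For miR-145-5p these were miR-202-5p at 0.901, miR-196-5p at 0.898 and miR-214-3p at 0.889. The level of miR-196-5p was 62.5 RPM in ovary and 94.5 RPM in testis, and it was unlisted in brain and liver. The level of miR-202-5p was 2280 RPM in ovary and 1256 RPM in testis, the reverse of the order of the smooth muscle pair.

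Scaled to miRNA RPM, over 78 families, r between the members was 0.990 and miR-145-5p was still first for miR-143-3p. For miR-145-5p, miR-193-3p (r = 0.994), miR-214-3p (0.994) and miR-202-5p (0.991) came before miR-143-3p. The share of miR-193-3p was 0.287% in ovary and 0.419% in testis, against 0.0528% in female brain and 0.0453% in male brain, 0.0521% in male liver and no listing in female liver. Unlisted and low values were raised to the listing minimum before r was taken, so a family at the minimum in 4 libraries gains likeness from shared low values. On the scaled values this held for all brain and liver libraries of miR-193-3p, so its shares there did not enter r. For miR-145-5p it held for both brain libraries and female liver. These scaled values of r thus largely restate gonads against libraries at the minimum. On both scales miR-145-5p was the family closest to miR-143-3p.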

How the data were processed

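The 6 deposited files hold exact sequences, their lengths and expression values, without naming any miRNA. The deposited values were taken to be RPM computed by the authors: within a tolerance of 0.02, 100% were whole multiples of 1 read in a fixed total, and these totals served counting intervals only. Per the labels' protocols, small RNA was gel purified, ligated to adapters on both ends and PCR amplified. CASAVA 1.7.0 is named in the submitters' processing notes. For the aligner and trimming, the sources used here give nothing.

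Sequences were assigned to families with 188 hand-written references in 126 family arms, some added after unassigned sequences were seen. Shares of miRNA RPM depend on that list, which took in 72.2% of the listed RPM in female liver and up to 96.9% in male brain. The references of miR-143-3p and miR-145-5p were the most abundant listed sequences with their seeds and a short 3′ stretch. RPM were summed per family. limma 3.58.1 (R 4.3.3) was fitted to log2(RPM + 1) of all families above the common listing minimum of 10.03 RPM in at least 1 fitted library, as a two-sided test, calling families at a Benjamini-Hochberg adjusted p under 0.05; lower values were raised to that minimum. Brain and liver were compared on 4 libraries, other pairs on 6. Scaled fits used the highest scaled minimum. Python 3.11.15, pandas 2.3.3, SciPy 1.17.1 and matplotlib 3.10.9 did the rest. The fit was also run on simulated normal values that were not raised to a listing minimum, so that run does not cover families at the minimum.

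The miRNAs named were both members, their forms, their opposite arms, the families of the lists and the 5 families most like each member. Members and lists were chosen with earlier results of these data known. Alternatives covered scaling, pseudocount, filter, listing minimum, family definition, sex as a block and each library left out.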

Additional observations from a re-analysis of the deposited data

Results flagged for a closer look

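For miR-145-5p the ratio of female to male RPM was 0.956 in gonads and 1.53 in brain, on opposite sides of 1. Neither counting interval reached 1. The difference between the organs was not tested, since each ratio rests on 1 pooled library per sex. With the top sequence alone, the ratio was 1.14 in gonads and 1.33 in brain, both above 1.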

How the results depend on the processing

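The direction of both members in gonads against brain and against liver was the same under every alternative run. Between brain and liver the sign changed under scaling. For miR-143-3p it was -1.04 scaled to miRNA RPM (limma, adjusted p = 0.0469) and -0.33 with median-of-ratios scaling (adjusted p = 0.332, not called). For miR-145-5p the values were -0.30 and -0.055, where both brain libraries and female liver sat at the raised minimum (28.2 and 27.7), so they show male liver against that minimum and no reversal. Leaving out each library in turn gave log2 folds of 1.71 to 1.97 for miR-143-3p and 2.79 to 3.40 for miR-145-5p in gonads against brain, where miR-143-3p without female brain was 1.76 with an adjusted p of 0.0577 (limma). In brain against liver the range was 2.12 to 2.82 for miR-143-3p and 1.58 to 2.51 for miR-145-5p, and without either brain library, or for miR-145-5p without female liver, the call was lost. With unlisted families at 0 the folds of miR-145-5p were 3.10 ± 1.59 against brain, 6.87 against liver and 3.78 for brain against liver, none past the threshold (adjusted p = 0.149, 0.0678 and 0.15 in limma). With a mean of at least 50 RPM required, miR-145-5p was not tested in brain against liver.

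Families higher in gonads than in brain numbered 22 scaled to miRNA RPM, 14 with median-of-ratios scaling, 4 with a mean of at least 50 RPM, 4 with no mismatch and 4 to 8 with a library left out (4 without female brain). Those higher in brain than in liver numbered 30 and 35 under the 2 scalings. With no mismatch allowed the share of miR-143-3p was 0.181% in brain and 0.627% in liver, and that of miR-145-5p 4.14% in gonads and 0.0356% in brain, since fewer sequences made up the total. With the top sequence only, the brain shares were 0.0998% for miR-143-3p and 0.0160% for miR-145-5p.

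The ratio of female to male for miR-143-3p was 0.919 in gonads, 0.821 in brain and 0.705 in liver with the top sequence, 0.541 in gonads and 0.812 in brain scaled to miRNA RPM, and 0.446, 0.675 and 1.12 in gonads, brain and liver with median-of-ratios scaling. For miR-145-5p it was 1.14 in gonads and 1.33 in brain with the top sequence, 0.618 and 1.39 scaled, and 0.510 and 1.15 with median-of-ratios scaling. With sequences under the common minimum left out, the ratio was 0.549 for miR-143-3p in liver and 1.83 for miR-145-5p in brain, and the lead form held 88.9% of miR-143-3p in liver, 62.9% of miR-145-5p in brain and 100% of it in liver. The cause of these shifts was not tested.

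The replicate block by sex changed no call of either member. The count test on recovered reads was not run. In liver the listing minimum limits miR-145-5p, which lay near or below it.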
